A study of Mus musculus with 8 samples.

Results

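Scg2, Fgf11, Ntn1, Gprasp1, Tcim and Akap7 are 6 genes with secretory, axon guidance or signalling roles, and all read higher in GFP-positive than in GFP-negative cells of the newborn mouse cortex. They were picked by probe from 33012 gene probes because earlier results of the same arrays had shown that difference, so their difference between the fractions is described here and not tested. Of these probes, 317 could be given a gene symbol. Scg2 (NM_009129.1), Fgf11 (NM_010198.1), Gprasp1 (NM_026081.3), Tcim (NM_026931.1) and Akap7 (NM_018747.2) were matched by their RefSeq transcripts. For Ntn1 the link was weaker, a cDNA accession (BC019633.1) that RefSeq lists as another name of the gene. Each gene had 1 matched probe.

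All cells came from the cerebral cortex of mice heterozygous for GAD67-EGFP at postnatal day 0, so both fractions carry that allele in 1 copy. GAD67 produces the inhibitory transmitter GABA, and EGFP expressed from this allele marks GABAergic neurons. Dissociated cells were sorted on green fluorescence into positive and negative fractions, and RNA was extracted at once, without culture. There were 4 biological replicates of each fraction, numbered 1 to 4, each on its own array; how many pups a replicate holds was not given. None of the 23 marker genes of GABAergic neurons listed for this check had a named probe, so the identity of the GFP-positive cells rests on the sort. The GFP-negative cells are a mixture of excitatory neurons, progenitors, glia and other cells. In such bulk fractions, fewer cells of a type and less RNA per cell cannot be told apart.

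The known roles of the 6 genes differ. Scg2 encodes secretogranin II, a granin that is stored in dense-core vesicles and cut into the peptide secretoneurin. Ntn1 encodes netrin-1, a secreted cue that attracts axons and migrating cells through DCC and repels them through UNC5 receptors. Fgf11 belongs to the fibroblast growth factor homologous factors, which stay inside the cell, and relatives of it bind voltage-gated sodium channels. Gprasp1 encodes a protein that sorts internalised G protein-coupled receptors toward the lysosome. Akap7 encodes an anchor that holds protein kinase A, the kinase activated by cyclic AMP, near membrane targets such as calcium channels. Tcim, known from human work as TC1, encodes a small protein that binds Chibby, an inhibitor of beta-catenin, and thereby favours Wnt signalling.

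RefSeq promoter sequence (build GRCm38.p6) was at hand for 4 of the 6 genes, in 5 windows. The windows of Scg2 and Gprasp1 lay wholly outside the annotated gene and are shown for their contrast in the cyclic AMP response element, the motif read by the CREB family. Each is the 250 bases before the annotated start, 5′ to 3′ on the gene's strand. Capitals mark the full element TGACGTCA and its core TGACG.
Scg2, chr1:79440027-79440276, minus strand: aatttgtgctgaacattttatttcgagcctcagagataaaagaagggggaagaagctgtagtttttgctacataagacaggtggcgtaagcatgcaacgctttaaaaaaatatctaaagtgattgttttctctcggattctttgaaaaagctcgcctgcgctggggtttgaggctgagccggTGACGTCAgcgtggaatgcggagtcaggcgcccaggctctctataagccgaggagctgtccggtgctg
Gprasp1, chrX:135742442-135742691, plus strand: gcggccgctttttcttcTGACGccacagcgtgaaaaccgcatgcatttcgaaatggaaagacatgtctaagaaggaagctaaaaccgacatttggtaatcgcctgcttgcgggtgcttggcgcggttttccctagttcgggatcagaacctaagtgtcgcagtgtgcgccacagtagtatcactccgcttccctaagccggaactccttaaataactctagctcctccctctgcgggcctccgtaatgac

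The Scg2 window held the full element once, with its first base at position −68 from the start. Among 32851 promoter windows of the same length, 1.55% held TGACGTCA. The Gprasp1 window held the core TGACG once, at position −233, and not the full element. The core, searched on both strands and contained in the full element, occurred in 17.8% of the windows. The windows of Fgf11 and Akap7 held neither. Both Akap7 windows held the GC box GGGCGG on one strand or the other, as did 32.7% of all windows. The homeodomain core TAATTA (4.84% of all windows) and the TATA motif TATAAA (12.4%), each searched on both strands, were found in none of the 5 windows. These matches are descriptions of the sequence and say nothing of which factors bind there.

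The brightness of a probe is a linear signal, and each spot also has a signal-to-noise score. A probe was taken as above background where that score was at least 3. For comparison between arrays the signals were put on a log2 scale and quantile normalized, and all log2 values below are on that scale. Median gene signals ranged from 661.6 to 1079 over the 8 arrays, and 16196 to 17749 probes per array were above background. With 4 arrays per fraction, precision is limited by their number.

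Scg2, the secreted granin, had log2 signals of 11.27, 11.78, 10.36 and 10.90 on GFP-negative arrays 1 to 4 and of 12.36, 12.68, 12.52 and 13.09 on GFP-positive arrays 1 to 4. The fractions did not overlap, and the GFP-negative arrays were the more scattered. The mean difference was 1.58 ± 0.31 (SE, n = 4 each), or 2.99-fold. Its detection also differed, since the signal-to-noise score was 8.16, 6.79, 2.22 and 2.50 on the GFP-negative arrays against 17.52, 16.68, 13.76 and 5.65 on the GFP-positive ones. Scg2 was thus above background on 4 of 4 GFP-positive but only 2 of 4 GFP-negative arrays, those of replicates 1 and 2.

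Ntn1, the secreted guidance cue, was above background on all 8 arrays. Its log2 signals were 12.90, 12.00, 13.13 and 12.71 in GFP-negative replicates 1 to 4 and 13.74, 13.22, 14.20 and 14.10 in GFP-positive ones. The fractions came close to overlapping, with GFP-positive replicate 2 only 0.08 above GFP-negative replicate 3, and replicate 2 was the lowest in both fractions. Before normalization the signals did overlap, since GFP-positive replicate 2 read 8086 and GFP-negative replicate 1 read 10295. The mean difference was 1.13 ± 0.30 (SE, n = 4 each), or 2.19-fold. Within the numbered pairs the differences lay closer together, from 0.85 to 1.39.

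Fgf11, the intracellular growth factor homologue, was the most uniform gene on the GFP-positive arrays after normalization, with log2 signals of 12.00, 11.75, 11.75 and 12.01 (SD 0.15). On the GFP-negative arrays it read 10.92, 10.74, 10.43 and 9.29. The mean difference was 1.53 ± 0.34 (SE, n = 4 each), or 2.89-fold, without overlap. GFP-negative replicate 4 stood lowest, with a signal-to-noise score of 0.92 and a quality flag, while the other 3 GFP-negative arrays scored 6.70 to 14.27. Fgf11 was therefore above background on 3 of 4 GFP-negative and 4 of 4 GFP-positive arrays. Without GFP-negative replicate 4 its difference was 1.18.

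Gprasp1, the receptor sorting gene, had the most even readings within the fractions, with log2 signals of 17.06, 17.37, 17.20 and 17.17 in GFP-negative and 17.99, 18.24, 17.88 and 18.24 in GFP-positive cells. Its residual SD within the fractions was 0.16, and 8.50% of all tested probes had one as low. The mean difference was 0.89 ± 0.16 (SE, n = 4 each), or 1.85-fold, and the fractions did not overlap. With each array scaled to its median instead, the SE was 0.27, larger than the 0.23 of Akap7. Linear signals were 116398 to 203249 in GFP-negative and 213336 to 412087 in GFP-positive cells. The signal-to-noise score did not separate the fractions, with 64.93 to 87.14 against 51.50 to 82.50, and was higher in the GFP-positive array of 2 of 4 pairs.

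Akap7, the protein kinase A anchor, had the smallest difference of the 6 genes. Its log2 signals were 13.07, 12.81, 12.97 and 12.93 in GFP-negative and 13.59, 13.51, 13.64 and 14.25 in GFP-positive cells, without overlap. The mean difference was 0.81 ± 0.20 (SE, n = 4 each), or 1.75-fold. GFP-positive replicate 4 stood above the other GFP-positive arrays, and without it the difference was 0.64. On that array the signal-to-noise score was 9.90, while the other 3 GFP-positive arrays gave 40.22 to 48.29. GFP-negative replicate 4 likewise scored 10.16 against 34.21 to 69.15, so both replicate 4 spots had low scores despite ordinary or high signals. Linear signals overlapped, with 6838 to 11715 in GFP-negative and 10043 to 17458 in GFP-positive cells.

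Tcim, the beta-catenin regulator, had the largest difference of the 6 genes. Its log2 signals were 10.84, 10.73, 10.93 and 10.10 in GFP-negative and 12.84, 12.70, 13.18 and 13.45 in GFP-positive cells. The gap between the fractions was wide, and the lowest GFP-positive array was still 3.41-fold above the highest GFP-negative one. The mean difference was 2.39 ± 0.25 (SE, n = 4 each), or 5.24-fold. Tcim was also the only one of the 6 genes whose signal-to-noise scores did not overlap, with 6.38 to 10.57 in GFP-negative and 29.35 to 48.32 in GFP-positive cells. On GFP-negative replicate 2 the spot carried a quality flag whose meaning is not given. Tcim was nevertheless above background on all 4 GFP-negative arrays, where its normalized signal was 19.1% of that in GFP-positive cells.

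**Figure D1:**
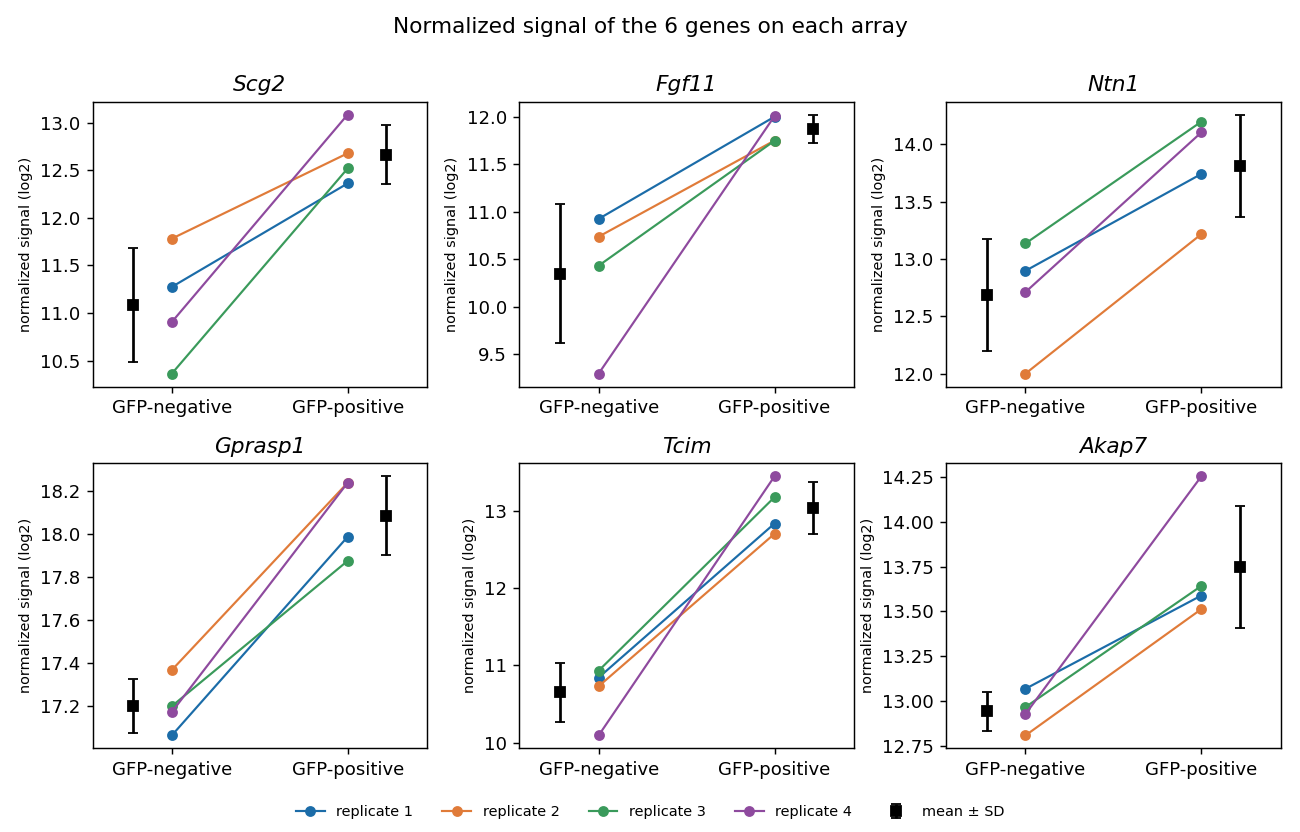
Normalized log2 signal (vertical axis, scaled separately for each gene) of the 6 genes in GFP-negative and GFP-positive cells. Coloured points joined by lines are the 2 arrays of 1 replicate number and black squares are the mean ± SD of 4 arrays; every line slopes upward, from the 1.75-fold mean difference of Akap7 to the 5.24-fold one of Tcim.

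By detection, none of the 6 genes was selective for GFP-positive cells. A gene was called selective where it was above background on all 4 arrays of one fraction and on 0 of 4 of the other, and graded where it was above background on all 8. Ntn1, Gprasp1, Tcim and Akap7 were graded (4 of 6 genes, against 74.1% of the probes above background on at least 4 of the 8 arrays). Scg2 and Fgf11 lay between, with 2 and 3 GFP-negative arrays above background. With a minimum score of 2, Scg2 was above background on all 8 arrays, while Fgf11 still missed GFP-negative replicate 4. The signal left in GFP-negative cells, as a share of that in GFP-positive cells, was 19.1% for Tcim, 33.4% for Scg2, 34.6% for Fgf11, 45.7% for Ntn1, 54.1% for Gprasp1 and 57.1% for Akap7. These shares were computed on the normalized scale and include any background in the signal.

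A pattern selective for GFP-positive cells was rare on these arrays, and the reverse pattern was not counted. Of all gene probes, 0.158% (52 of 33012) were above background on every GFP-positive and no GFP-negative array, and 37.9% were above background on all 8. Among the 906 probes called higher in GFP-positive cells by the limma fit given further on, 69.6% were graded and 5.3% selective.

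The negative control spots gave a second view of background. Of the 98 such spots on each array, at least 95 read below every value of the 6 genes, with the exception of Fgf11 on GFP-negative replicate 4, which was above 92. The brightest control spot of each array read 5254 to 13989, and 23 of the 48 values of the 6 genes exceeded it, among them all 8 of Gprasp1.

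**Figure D2:**
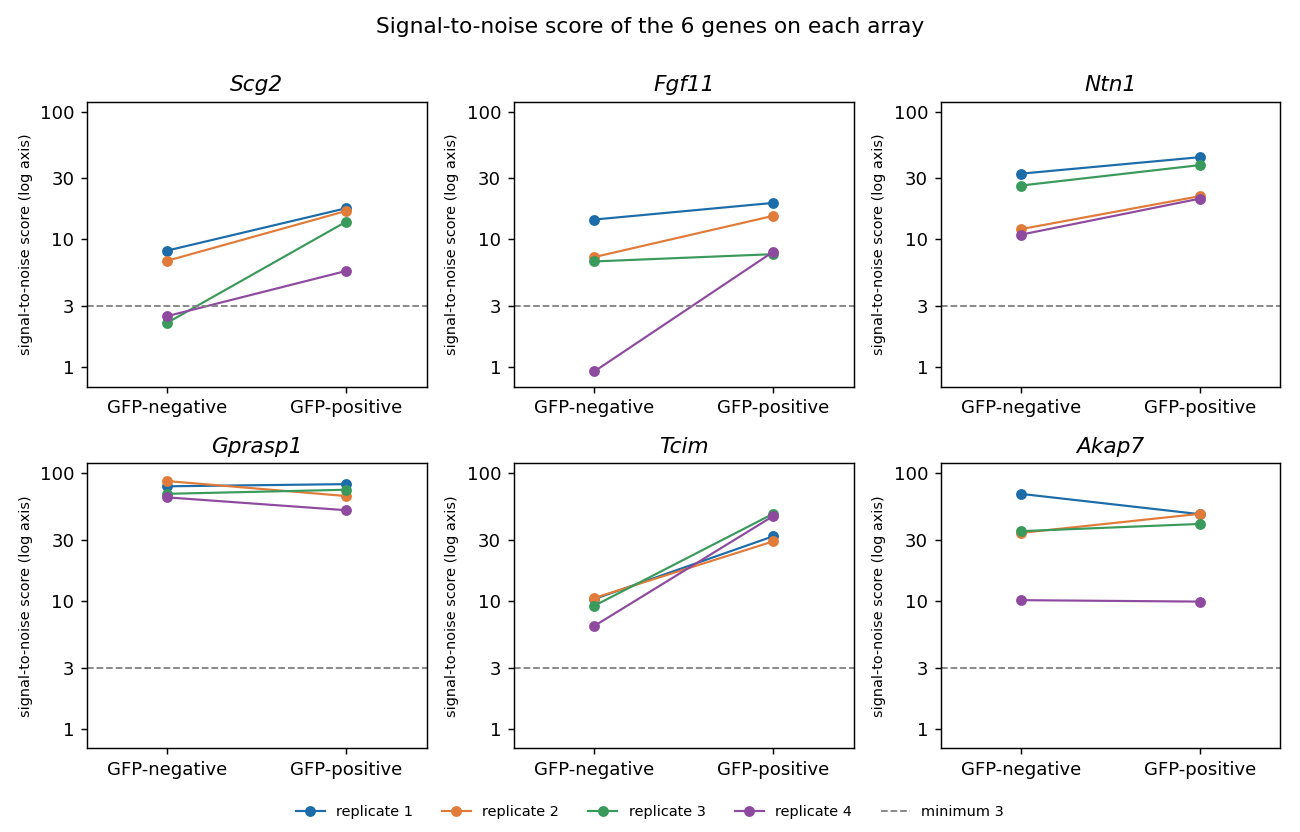
Signal-to-noise score (log axis, the same in every panel) of the 6 genes on the 8 arrays, with points of 1 replicate number joined and the minimum of 3 dashed. Scg2 falls under 3 on GFP-negative arrays 3 and 4 and Fgf11 on GFP-negative array 4 (0.92), Tcim separates the fractions, and Gprasp1 and Akap7 do not.

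The 6 genes were set against the 16875 probes that were above background on at least 4 of the 8 arrays, a group that included all 6. All 6 were called higher by limma at an adjusted p of 0.05 (5.37% of the tested probes were called higher and 14.5% in either direction), but nothing is read from this count, because the genes were chosen on it. Likewise, all 6 were higher in 4 of 4 pairs (27.3% of tested probes), and the normalized values of the fractions did not overlap for any of them (9.23%). The difference was at least 2-fold for 4 of 6 (5.46%). The median difference was 1.33 for the 6 genes and 0.09 for all tested probes. Fitting the replicate number as a block left all 6 called (10.8% of tested probes called higher).

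Many other probes differed by as much. Differences at least as large as that of Tcim were found for 165 tested probes (0.978%), as that of Scg2 for 374 (2.22%) and as that of Fgf11 for 392 (2.32%). The counts were 727 for Ntn1, 1154 for Gprasp1 and 1347 for Akap7 (4.31%, 6.84% and 7.98%).

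**Figure D3:**
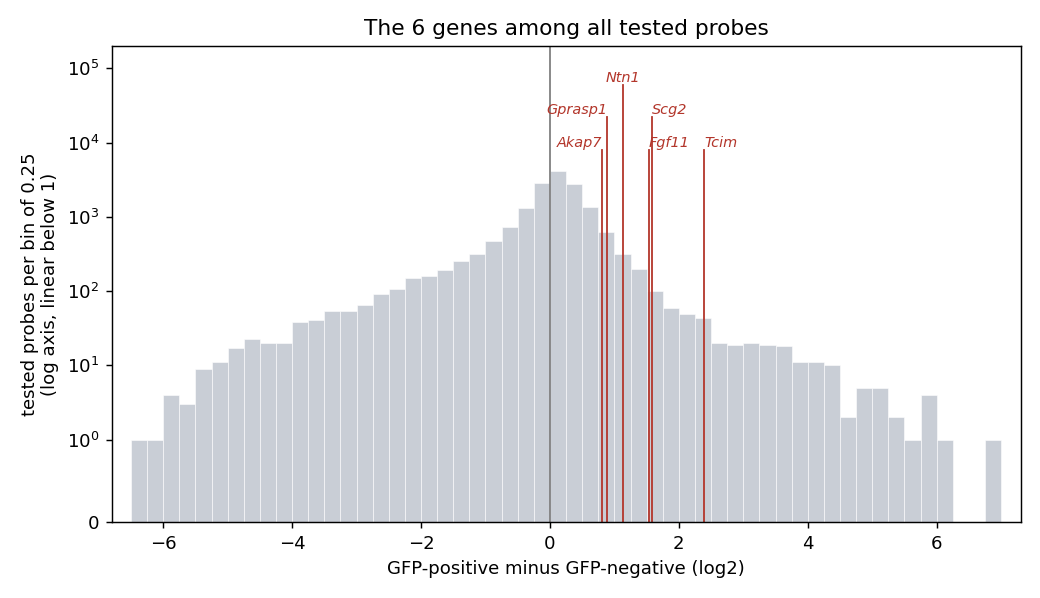
Number of tested probes (vertical axis, logarithmic above 1 and linear below) by difference between GFP-positive and GFP-negative cells (log2, bins of 0.25), with the 6 genes as red lines. The genes lie between 0.81 and 2.39, inside a right-hand tail that reaches beyond 6.

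Under other settings the calls on this same difference are likewise a description and test nothing. Scaling each array to its median gave differences of 0.88 to 2.41 with all 6 called (4.51% of tested probes called higher), and the ratio deposited by the authors gave 0.87 to 2.41, also with all 6 (4.43%). After scaling to control spots of the reverse transcription kit, Scg2, Fgf11 and Tcim were called and Ntn1, Gprasp1 and Akap7 were not (2.6%), with differences of 1.01, 0.84 and 0.69 for the latter. Within replicates 1 and 2 alone, Tcim was the only one of the 6 called (2.01% of tested probes called higher), and within replicates 3 and 4 alone Tcim and Scg2 were (2.1%).

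Replicate 4 gave the largest difference for each of the 6 genes. In replicates 1 to 4 the differences were 1.09, 0.90, 2.16 and 2.18 for Scg2, and 1.08, 1.01, 1.32 and 2.72 for Fgf11. They were 1.99, 1.97, 2.24 and 3.35 for Tcim, and 0.52, 0.71, 0.68 and 1.33 for Akap7. Ntn1 and Gprasp1 were steadier, with 0.85, 1.22, 1.06 and 1.39 for the one and 0.93, 0.87, 0.68 and 1.07 for the other. Over all tested probes, replicate 4 gave the highest value for 23.9%, and for 29.6% of those higher in all 4 pairs.

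The arrays behind this differed from gene to gene. For Fgf11 the GFP-negative array of replicate 4 was the low one, for Akap7 the GFP-positive array was the high one, and for Tcim both stood at the edge of their group. Fgf11 was not above background on its low array (score 0.92), so its difference of 2.72 in replicate 4 is uncertain. The median difference of all tested probes in replicate 4 was 0.02, the smallest of the 4 replicates. The kit control spots of replicate 4 had the lowest mean log2 signals of the 8 arrays, 16.09 and 15.98, against 16.42 to 17.18 elsewhere. Their part in the result was not tested. Without the replicate 4 pair all 6 genes remained higher, by 0.63 for Akap7 to 2.07 for Tcim, and 3 of 6 were still called: Fgf11, Gprasp1 and Tcim (3.7% of tested probes called higher).

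**Figure D4:**
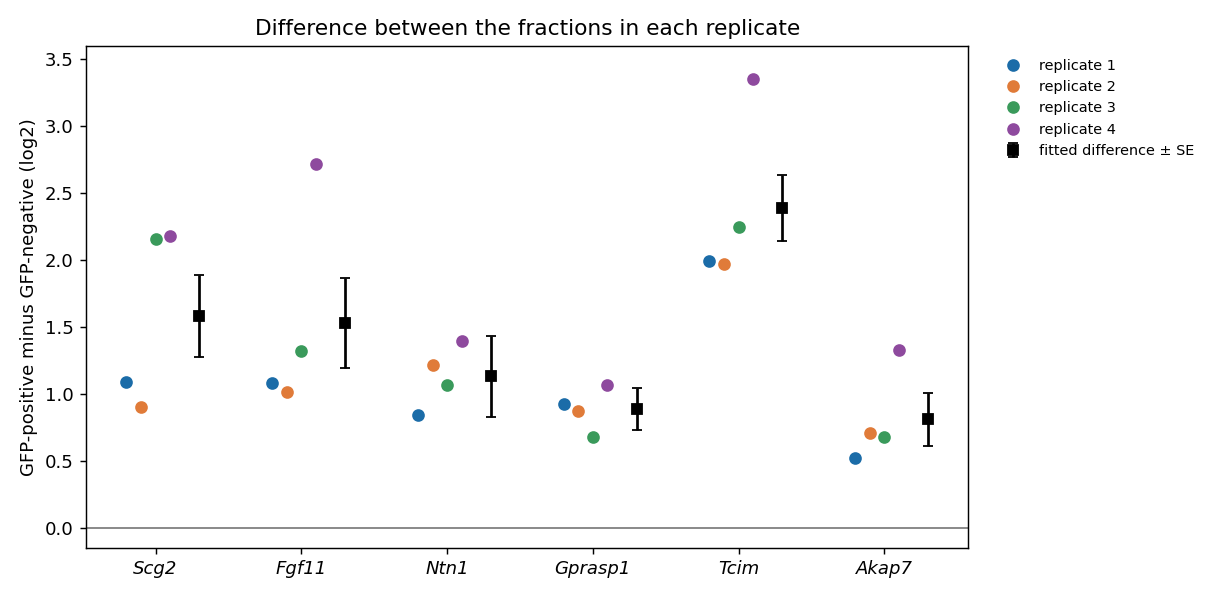
Difference between GFP-positive and GFP-negative arrays (log2) in each of the 4 replicates, as coloured points, with the fitted difference ± SE as black squares. Replicate 4 is highest for every gene, most clearly for Fgf11 (2.72), Tcim (3.35) and Akap7 (1.33), and all points lie above 0. The Fgf11 point of replicate 4 includes a GFP-negative spot that was not above background (score 0.92).

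A pair of measures was tested, both between replicates 1 and 2 and replicates 3 and 4. They do not contain the mean difference between the fractions by which the genes were chosen. Shifts between these sets do add to the residual spread of the limma fit, so choice by its call favours genes with small shifts. The hybridization control spots separate these sets, with mean log2 signals of 15.95 to 16.27 and 17.13 to 17.35, and each set holds both fractions. The first measure was the change of the fraction difference from one set to the other. Scg2 had the largest change of the 6 genes, with a difference of 0.99 in replicates 1 and 2 and of 2.17 in replicates 3 and 4. On both GFP-negative arrays of replicates 3 and 4 Scg2 was not above background (scores of 2.22 and 2.50), so its level there is uncertain. The later difference, 4.50-fold as measured, and the change carry the same limit. The measured change of 1.18 ± 0.20 (SE over 4 pair differences) did not pass limma's test (adjusted p = 0.535, unadjusted p = 0.00407 with limma), and 3.11% of the tested probes changed upward by as much. For 5 of the 6 genes, all but Gprasp1, the difference was larger in replicates 3 and 4, as for 49.2% of tested probes. On the GFP-negative side the mean of Scg2 was 11.53 in the first set and 10.63 in the second, while the GFP-positive means were 12.52 and 12.80.

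None of the other genes passed that test. The changes were 0.97 ± 0.53 for Fgf11, 0.82 ± 0.43 for Tcim, 0.39 ± 0.30 for Akap7, 0.20 ± 0.26 for Ntn1 and −0.03 ± 0.23 for Gprasp1 (limma adjusted p from 0.685 to 0.982). Replicate 4 weighed heavily in the first 3 of these, which were 0.27, 0.26 and 0.06 without it. Without replicate 3 they were 1.67, 1.37 and 0.71, so that Fgf11 and Tcim then changed by more than Scg2 (1.19). The values of Fgf11 and Scg2 then rest on GFP-negative replicate 4, where neither was above background (scores of 0.92 and 2.50). For Ntn1 the change ranged from 0.01 without replicate 1 to 0.38 without replicate 2, and for Gprasp1 from −0.22 without replicate 4 to 0.17 without replicate 3. Scaled to the median of each array, they were 0.06 for Ntn1, −0.21 for Gprasp1 and 0.24 for Akap7. Over all 16875 probes limma called 0 such changes, and 1364 (8.08%) had an unadjusted p under 0.05.

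The second measure was the level itself, averaged over both fractions. Ntn1 was 0.57 ± 0.23 higher in replicates 3 and 4, which did not pass the test (limma adjusted p = 0.157). Fgf11 had −0.48 ± 0.30, Scg2 −0.31 ± 0.30, Akap7 0.20 ± 0.18, Tcim 0.13 ± 0.25 and Gprasp1 −0.04 ± 0.14 (limma adjusted p from 0.331 to 0.873). None of the 6 was called, and 10.3% of all tested probes were, but the choice of the genes favours such small shifts. That fit takes the 8 arrays as independent although same-numbered arrays deviated together. Fitted to the 4 means of same-numbered arrays, a fit chosen after seeing the data, limma called 0 probes (17.8% had an unadjusted p under 0.05), and the shift of Ntn1 was 0.57 ± 0.31 (adjusted p = 0.386).

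The sizes of these shifts depended on scaling and on single replicates. With each array scaled to its median they were −0.58 for Fgf11, −0.50 for Gprasp1, −0.49 for Scg2 and 0.31 for Ntn1, while Akap7 and Tcim turned to −0.07 and −0.04 (limma adjusted p from 0.102 to 0.919). With replicates left out in turn, Ntn1 had 0.22 (without replicate 2) to 0.93 (without replicate 1), Fgf11 −0.70 (without replicate 3) to −0.26 (without replicate 4) and Scg2 −0.58 (without replicate 4) to −0.03 (without replicate 3). Akap7 had 0.06 (without replicate 4) to 0.35 (without replicate 3). The sign was not settled for Tcim, with −0.01 (without replicate 3) to 0.28 (without replicate 4), or for Gprasp1, with −0.18 (without replicate 1) to 0.10 (without replicate 2).

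Across the 8 arrays the 6 genes correlated with each other at r = 0.58 to 0.93 (Pearson, 15 pairs of genes). These correlations include the difference between the fractions by which the genes were chosen. After the mean of each fraction was removed, r ranged from −0.60 for Ntn1 with Gprasp1 to 0.71 for Fgf11 with Tcim, with a median of 0.19. All these values share the same 8 arrays and their normalization.

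Each gene was also compared with the other 162 tested probes that have a gene symbol, by Pearson correlation of normalized signal over the 8 arrays. Genes chosen for 1 shared difference between the fractions rank near each other by this measure, so the order is a description. Tcim was closest to Gprasp1 (0.93) and Akap7 (0.92), and Fgf11 was close to Tcim (0.92). Scg2 was closest to Nanos1 (0.92), an RNA-binding translational regulator, and then to Gprasp1 (0.91). Ntn1 was closest to Rtl8c (0.96), a retrotransposon-derived gene, and to Prr18 (0.93). Fgf11 was closest to the olfactory receptor gene Olfr982 (0.93), and Pcdha3, a clustered protocadherin of neuronal surfaces, came second for both Gprasp1 and Akap7 (0.92 each).

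The neighbours outside the group were thus picked through that difference, and their own differences between the fractions are given without a test. The difference (± SE, n = 4 each) was 0.71 ± 0.20 for Nanos1, 0.81 ± 0.20 for Rtl8c, 0.91 ± 0.22 for Olfr982, 0.33 ± 0.20 for Prr18 and 0.42 ± 0.14 for Pcdha3. Olfr982 thereby exceeded Gprasp1 (0.89) and Akap7 (0.81), while Prr18 and Pcdha3 lay below all 6 genes.

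Few other genes of the same pathways had a named probe. Of the lists drawn up for these pathways, that of granins and dense-core vesicles had 1 matched gene of 25, Scg2 itself, and the axon guidance list had 1 of 63, Ntn1 itself. Netrin receptors and the other granins were therefore not analysed here. The list of fibroblast growth factors and their channel partners had 2 matched genes of 36. Its other matched gene, Fgf21, a secreted metabolic hormone, was above background on none of the 8 arrays and was not tested.

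In the list of receptor sorting and ARMCX genes 3 of 25 genes were tested, 2 called higher and 1 lower (5.37% and 9.1% of all tested probes). One of those called higher was Gprasp1, which was chosen on that call. The pathway lists were drawn up with earlier results of these data known, so their counts and calls are a description. The other genes were both receptor activity-modifying proteins, which escort receptors of the calcitonin family. Ramp3 was 1.86-fold higher in GFP-positive cells (difference 0.89 ± 0.20; limma adjusted p = 0.0154). Ramp1 was lower (8.68 ± 0.21 against 10.16 ± 0.73, SD, n = 4 each; limma adjusted p = 0.0193) and above background on 0 of 4 GFP-positive and 4 of 4 GFP-negative arrays. The call of Ramp3 was lost with kit control scaling (difference 0.75, limma adjusted p = 0.233).

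In the list of anchors and protein kinase A genes 2 of 37 were tested. Akap10, an anchor found at mitochondria, had a difference of 0.49 ± 0.28, was higher in 3 of 4 pairs and did not pass (limma adjusted p = 0.331). Akap4, an anchor of the sperm tail, was above background on none of the 8 arrays. In the list of Wnt and beta-catenin genes 2 of 45 were tested. Beside Tcim this was Sfrp4, a secreted Wnt antagonist, with a difference of 1.07 ± 0.39 in 4 of 4 pairs (limma adjusted p = 0.110, and 0.0248 with replicate as a block). No statement on any of these pathways as a whole can rest on so few genes.

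Of the marker lists of other cells, only 5 genes could be tested. These lists too were drawn up with earlier results of these data known, so their counts and calls are a description. The 3 tested excitatory neuron genes of a list of 21 (Lhx2, Zbtb18 and Pou3f3) were called lower in GFP-positive cells, as were the 2 tested of 22 for blood and vessels (Hba-a1 and Lgals1), with log2 differences from −1.58 to −4.85 (9.1% of all tested probes were called lower). No glial or progenitor gene of 21 had a named probe. The only matched pan-neuronal gene, Snap25, was above background on none of the 8 arrays. Its highest score was 1.85, and whether this probe reports its gene was not tested. The part of this cell mixture in the lower GFP-negative signals of the 6 genes was not tested.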

How the data were processed

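Total RNA (500 ng) from sorted cells was amplified and labelled with digoxigenin, per the labels' protocols. The 4 deposited array tables hold a linear signal intensity for each probe, a signal-to-noise score and a quality flag, per the file headers. Scanner, extraction software and any background step are not stated in any source used here. A ratio was also deposited by the authors in the series matrix; for each array it is proportional to the signal and was tried in its place.

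Signals below 1 were set to 1, turned to log2 and quantile normalized over 8 arrays. The 16875 probes with a score of at least 3 on at least 4 arrays were fitted with limma (version 3.58.1, R 4.3.3), without a block, with Benjamini-Hochberg adjustment over all of them. The change between replicate sets was fitted to the 4 same-numbered differences, and the level with fraction as a covariate. Same-numbered arrays deviated together (r = 0.52, 0.45, 0.35 and 0.44, against −0.39 to 0.16 for the 12 other combinations), and each table holds 1 number. The mean of each fraction was removed first, which by itself lowers the other combinations when the same-numbered ones are high. The numbers were therefore treated as pairs in the differences by replicate, the change between replicate sets and the block alternative. The main fit and those with arrays left out or scaled otherwise did not use the pairs. For Ntn1 the SE was 0.30 without the block and 0.13 with it.

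The 6 genes, the lists and the sets of replicates were chosen with earlier results of these data known. Named are these genes, every tested gene of the lists tied to them and, for each, the 2 tested probes with a symbol that correlate best with it. Symbols came from RefSeq (GRCm38.p6), which matched 317 probes; 27930 probes carry Celera identifiers and may hold further probes of these genes.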

Additional observations from a re-analysis of the deposited data

Results flagged for a closer look

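Among 40 sets of 4 arrays, made of the genes named here and of the marker genes, 3 held an array far from the other 3, and chance gives about 1 in 20. None concerned the 6 genes. Pcdha3 read 16.70 on GFP-negative replicate 4 against 16.51 to 16.53 on the other arrays of its group, a gap of 0.884 of the range. Pou3f3, an excitatory neuron marker, read 13.19 on GFP-positive replicate 2 against 12.34 to 12.44, a gap of 0.883. Hba-a1, a haemoglobin gene, read 19.05 on GFP-negative replicate 2 against 19.39 to 19.45, a gap of 0.833.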

How the results depend on the processing

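The differences of the 6 genes kept their sign under all 120 combinations of gene and alternative, but the genes were chosen on that sign. Their normalized fractions did not overlap, so leaving out arrays could not reverse it. Fitting a block leaves each difference unchanged by design. In 116 of the 120 combinations the differences moved by less than the SD between replicates. The other 4 came from replicate sets taken alone: Scg2 had 0.99 in replicates 1 and 2 and 2.17 in replicates 3 and 4, and Tcim 1.98 and 2.80. With arrays or pairs left out in turn, the differences were 1.34 to 1.81 for Scg2, 1.14 to 1.72 for Fgf11, 0.90 to 1.33 for Ntn1, 0.83 to 0.96 for Gprasp1, 2.07 to 2.53 for Tcim and 0.63 to 0.90 for Akap7. Over those 12 fits the calls of Gprasp1 and Tcim held in each. That of Scg2 was lost without pair 4, and that of Fgf11 without pair 3. That of Akap7 was lost without any 1 pair or without GFP-negative 2, 3 or 4 or GFP-positive 3. That of Ntn1 was lost without pair 1, 3 or 4, GFP-negative 1, 2 or 4, or GFP-positive 1, 3 or 4. Without pairs 1 to 4 in turn, 3.1%, 3.93%, 2.73% and 3.7% of tested probes were called higher, against 5.37% with all arrays. With no filter on the score Ntn1 and Akap7 were not called (1.83% of all gene probes called higher). In replicates 1 and 2 alone 1 of 6 was called (Tcim, with 2.01% of tested probes called higher), and in replicates 3 and 4 alone 2 (Scg2 and Tcim, with 2.1%). Over all probes, 4043 were called with the replicate number as a block, against 2441 without it, 1088 in replicates 1 and 2 alone, 1173 in replicates 3 and 4 alone, and 1529 (without pair 3) to 2409 with arrays or pairs left out. The block changed no call of the 6 genes. Levels between replicate sets were called for 1730 probes, 197 with no filter, 0 on the 4 means of same-numbered arrays (chosen after seeing the data) and 0 to 735 with a pair left out (0 without pair 1, 2 or 4, 735 without pair 3). The cause was not tested, and the reduced fits also hold fewer arrays. Low signal-to-noise scores limit Scg2 and Fgf11 in GFP-negative cells. For Scg2 the score was not set by brightness alone. On GFP-negative replicate 4 it read 1889 with a score of 2.50, while Tcim read 1120 with a score of 6.38.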
